A study of Mus musculus with 5 samples.

Results

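Stretches of mouse hippocampal RNA recovered by anti-HA immunoprecipitation that ran across the annotated start of a gene are described here. A region was included when the deposited annotation placed at least 1 gene start inside it and placed no gene end and no whole gene inside it. This gave 363 of 4191 called regions (8.66%) for HA over IgG in knock-in mouse 1 and 182 of 1920 (9.48%) in knock-in mouse 2. For HA over wild type it gave 500 of 5355 regions (9.34%) in mouse 1 and 477 of 5362 (8.90%) in mouse 2. The study sought mRNAs bound by CYFIP1, a protein that joins the translation repressor FMRP and also sits in the actin-regulating WAVE complex. It used 5 libraries of hippocampus from C57BL/6 mice. Anti-HA was used on 2 samples labelled knock-in (called mouse 1 and mouse 2 after their numbers) and on 1 wild-type sample, and control IgG on knock-in samples with the same 2 numbers. The labels name neither the knocked-in allele nor age, sex or treatment, and all 5 libraries share the strain and the tissue. Each list set 1 knock-in HA library against 1 control, and both wild-type lists used the same wild-type library.

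Transcription of a gene begins at its start, and the first exon there usually holds the 5′ untranslated region and often the first codons. The bases just before the start form the promoter, which is not part of the gene's own mRNA, although a neighbouring or opposite-strand transcript can cover it. Many mammalian promoters fire in both directions and lie in stretches rich in CG, so an RNA region over a start can hold RNA of more than 1 transcript. The library kit and the region lists carry no strand, so reads of the crossed gene and of an antisense, divergent or host gene could not be told apart.

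To show what the upstream side of such regions looks like, 5 promoters are printed from RefSeq (build GRCm38.p6), each from 250 to 21 bases before the RefSeq start, 5′ to 3′ on the gene's strand. None of the printed bases lies past the start used by the region lists. Capitals mark the TATA box spelled TATAAA, the CAAT box spelled CCAAT and the GC box spelled GGGCGG, each on either strand, and matches of different motifs did not share a base. Synm and Pim3 were chosen for high HA reads, Ptp4a1 for the highest mean fold over wild type, Myh9 for the lowest, and Nr4a1 because its start was crossed in all 4 lists. They lie at chr7:67759763-67759992 (Synm, minus strand), chr15:88861944-88862173 (Pim3, plus), chr1:30949776-30950005 (Ptp4a1, minus), chr15:77842196-77842425 (Myh9, minus) and chr15:101266596-101266825 (Nr4a1, plus). The Synm bases also lie in an annotated exon of the opposite-strand gene Gm45102.
Synm: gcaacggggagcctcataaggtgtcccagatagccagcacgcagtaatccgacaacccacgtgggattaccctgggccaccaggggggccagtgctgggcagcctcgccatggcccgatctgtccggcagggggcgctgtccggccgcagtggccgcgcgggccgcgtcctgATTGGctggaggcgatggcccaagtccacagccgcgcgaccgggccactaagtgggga
Pim3: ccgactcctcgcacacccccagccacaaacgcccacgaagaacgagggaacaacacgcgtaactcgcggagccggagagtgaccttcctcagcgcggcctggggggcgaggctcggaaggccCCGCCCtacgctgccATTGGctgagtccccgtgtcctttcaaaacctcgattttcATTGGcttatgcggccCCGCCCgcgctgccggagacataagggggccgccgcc
Ptp4a1: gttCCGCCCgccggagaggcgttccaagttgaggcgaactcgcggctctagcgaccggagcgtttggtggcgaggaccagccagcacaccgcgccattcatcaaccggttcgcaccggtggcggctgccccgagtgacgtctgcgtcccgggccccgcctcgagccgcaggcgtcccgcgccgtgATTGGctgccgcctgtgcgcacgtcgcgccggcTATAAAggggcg
Myh9: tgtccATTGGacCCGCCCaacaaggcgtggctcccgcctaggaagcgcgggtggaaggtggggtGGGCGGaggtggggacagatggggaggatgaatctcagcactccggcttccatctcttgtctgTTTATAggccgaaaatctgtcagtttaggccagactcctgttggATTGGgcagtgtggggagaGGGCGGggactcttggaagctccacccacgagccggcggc
Nr4a1: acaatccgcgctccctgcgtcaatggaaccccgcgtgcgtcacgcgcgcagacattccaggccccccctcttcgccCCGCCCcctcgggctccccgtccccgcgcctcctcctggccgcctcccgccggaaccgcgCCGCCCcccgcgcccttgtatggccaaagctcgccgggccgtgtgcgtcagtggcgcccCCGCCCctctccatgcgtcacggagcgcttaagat

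All 230 printed bases lay inside the Synm region of mouse 1 over IgG, the Pim3 regions of mouse 2 and the Nr4a1 regions of all 4 lists. Of the Myh9 bases 140 lay inside its region, and of the Ptp4a1 bases 100. GC content was 69.6% for Synm, 66.5% for Pim3, 71.3% for Ptp4a1, 61.7% for Myh9 and 73.9% for Nr4a1, and the median of all 32851 promoters in the table over the same 230 bases was 51.7%. Over those bases TATAAA on either strand was present in 11.8% of all promoters, CCAAT in 32.2% and GGGCGG in 29.8%. The match in Myh9 and that in Ptp4a1 were the only ones to TATAAA among these 5. A match is a description of letters and not a bound site. The set as a whole was not compared with other promoters, because the table held only 63.0% to 70.0% of the crossed genes in the 4 lists and 80% was needed.

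Depth was low. Summed over the start-crossing regions, the HA library had 3580 reads in mouse 1 and 1904 in mouse 2 over IgG, and 5534 and 5045 over wild type. The control libraries had 1296, 2003, 4747 and 2997 reads in the same order. These were 3.60%, 2.97%, 3.58% and 3.03% of the HA reads in each list, less than the regions' share by number. Reads outside called regions were not in the lists. At least 20 HA and control reads together were present in 52, 58, 109 and 105 of the regions, and folds are given only for those unless stated. The lists drew on different chromosomes: 5, 2, 6 and 5 chromosomes held 500 or more regions each, among them 12 and 15 in every list.

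The regions reached further into the gene than before it. The median crossing covered 351, 389, 397.5 and 373.5 bases before the start in the 4 lists, and 866, 833, 958.5 and 877 bases after it. More bases lay after the start than before in 69.1%, 64.5%, 66.3% and 67.1% of crossings. Of the crossings of protein-coding genes, 74.5%, 67.0%, 74.7% and 71.1% also touched coding sequence, so most of them extended past the 5′ untranslated region. Annotated exons of the crossed gene made up a median of 39.4%, 29.4%, 34.7% and 31.5% of the region.

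**Figure D1:**
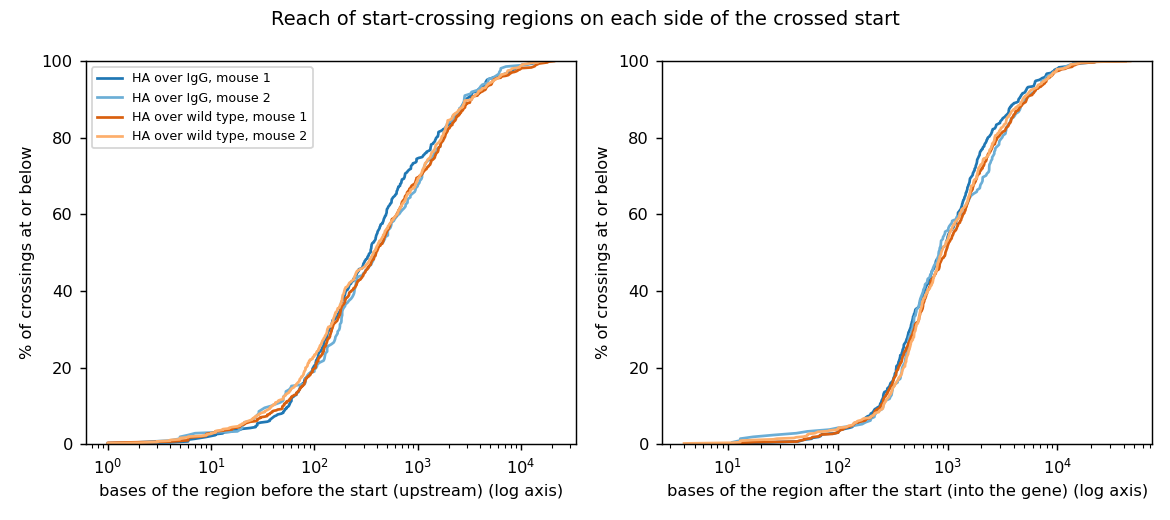
Cumulative share of crossings (vertical axis, percent) by the bases of the region before the start (left) or after it (right), on log axes, with 1 line per list. The 4 lines lie close together, with medians of 351 to 397.5 bases before and 833 to 958.5 bases after the start.

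Protein-coding genes made up 82.7%, 86.3%, 81.8% and 82.0% of the crossed starts. Regions that crossed starts on both strands, as at the head-to-head pair AU040320 and Ncdn, numbered 62 of 363 (17.1%), 27 of 182 (14.8%), 94 of 500 (18.8%) and 79 of 477 (16.6%). A further class lay inside another gene: 47, 20, 81 and 86 regions, as at Gpr22, an orphan receptor gene inside Cog5. The listed starts were checked against GENCODE M21, which placed the start of the same gene inside the region in 96.5%, 89.6%, 94.7% and 94.5% of crossings. That annotation also put a gene start in 181 of 3777, 102 of 1696, 321 of 4703 and 250 of 4774 regions that the lists give as crossing none. The label therefore fits the members, but the deposited annotation did not list every start.

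Start-crossing regions were about as wide as the rest and held fewer reads per kb when pooled, but not in the typical region. Their median width was 1600, 1997.5, 1845 and 1750 bp, against 1640, 2200, 2050 and 1845 bp for all other regions. Regions crossing gene ends were wider, with medians of 4715, 4845, 5130 and 4800 bp. The median start-crossing region held 5, 6, 6 and 6 HA reads and 2, 5, 3 and 3 control reads. Pooled over the regions, HA coverage was 3.46, 3.43, 3.35 and 3.53 reads per kb, against 7.21, 9.09, 7.04 and 9.22 reads per kb in the other regions of the same lists. The median HA coverage of single regions was instead higher at starts, at 3.69, 3.33, 3.33 and 3.51 reads per kb against 3.25, 2.81, 3.04 and 3.33. Low pooled coverage was not particular to starts: regions crossing gene ends had 3.73, 4.61, 2.96 and 3.66 reads per kb. Single regions also weigh on the pooled values. Over wild type, 1 region held 45588 of the 148874 HA reads of the other regions in mouse 1, and 48838 of 161715 in mouse 2. The share of start-crossing regions with at least 20 reads was below that of other regions over IgG (14.3% against 21.1%, and 31.9% against 40.2%). It was also below over wild type (21.8% against 25.4%, and 22.0% against 25.4%).

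**Figure D2:**
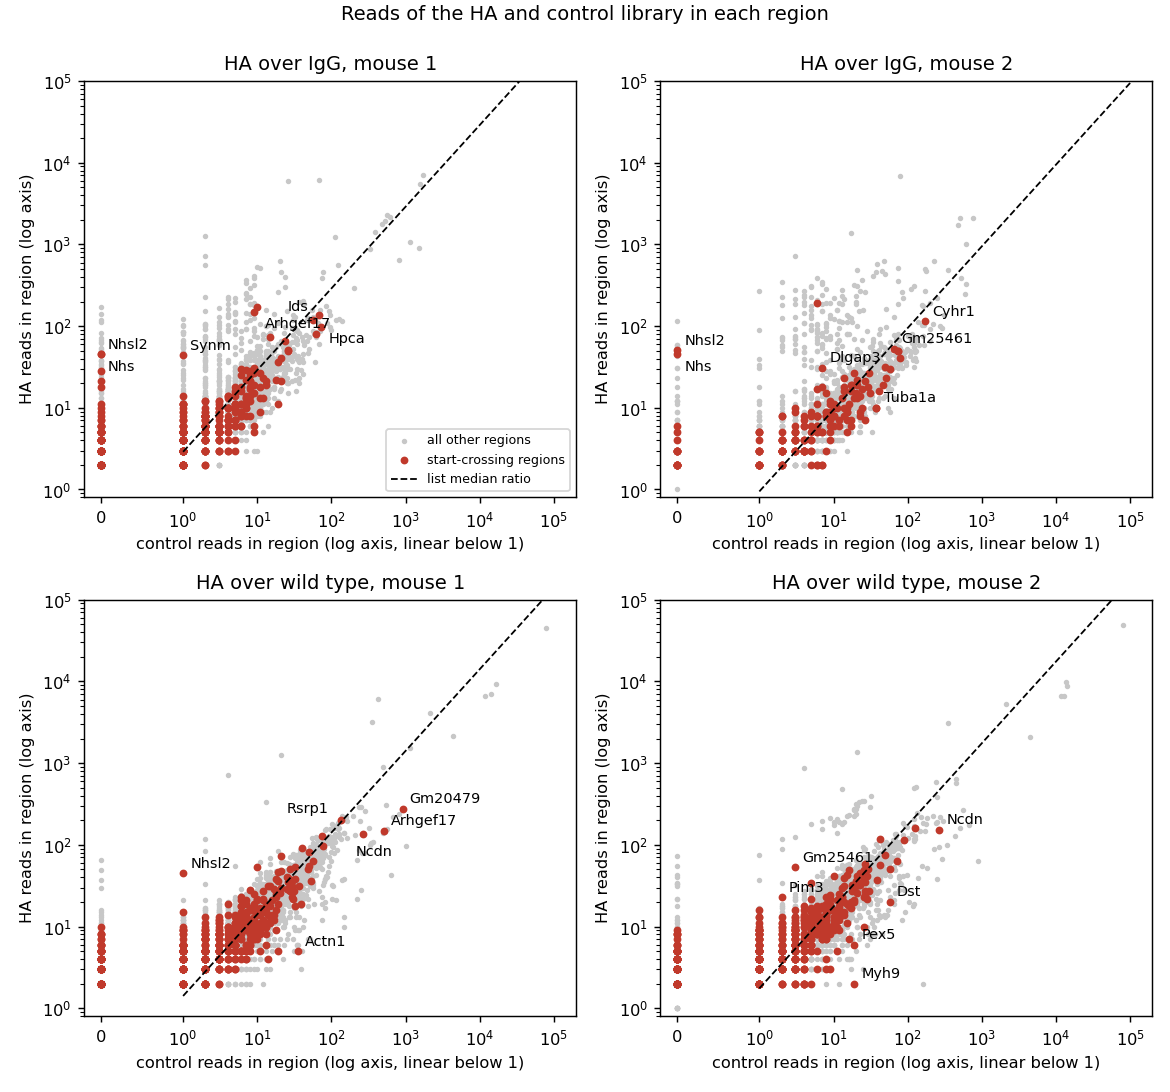
HA reads (vertical, log axis) against control reads (horizontal, log axis that is linear below 1) of each called region in the 4 lists, with start-crossing regions in red, all others in grey and the list's median ratio dashed. Nhs, Nhsl2 and Synm sit far above the line over IgG, and Myh9, Actn1 and Arhgef17 lie below it over wild type.

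Folds below are the ratio of HA to control reads divided by the median of that ratio over all regions of the list with 20 or more reads, which was 2.89 and 0.947 in the IgG lists and 1.41 and 1.75 in the wild-type lists. A value of 1 is therefore the typical region and not equal reads. On this scale start-crossing regions sat below the typical region over IgG and near it over wild type. The median fold was 0.756 over 52 regions in mouse 1 and 0.733 over 58 in mouse 2 for IgG, against 1.03 and 1.02 for the other regions. Regions crossing gene ends had medians of 0.806 and 0.981 over IgG. For start-crossing regions the median differed between chromosomes. On those with at least 500 called regions the median was 0.691 (36 regions) and 0.714 (53), against 0.885 and 0.785 for all regions there. On the rest it was 1.24 (16 regions) against 4.37 in mouse 1, and 15.8 (5 regions) against 11.8 in mouse 2. The 15.8 is the fold of the Nhs region, whose 0 IgG reads were set to 3. The order of 15.8 and 11.8 therefore depends on that setting and on 5 regions. Over wild type it was 0.991 over 109 and 0.929 over 105 regions, against 1.00 in both for the others. With the 2 mice combined, the median log2 fold was -0.43 ± 0.03 (SD, n = 2) over IgG and -0.06 ± 0.07 over wild type, where the shared wild-type library makes the 2 values dependent. For mouse 2 over IgG the median turned to a log2 value of 0.079 when regions with fewer reads were added. Scaled by pooled reads in place of the median ratio, the medians over IgG were -0.82 and -1.53, and those over wild type 0.72 and 0.82.

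Over IgG, the start regions that stood high included those of Nhs, Nhsl2, Synm, Arhgef17 and Dlgap3. At 4-fold or more stood 5 of 52 regions in mouse 1 (background over all regions of that list, 17.2%) and 4 of 58 in mouse 2 (background 21.8%), so high regions were not more frequent here than in the list as a whole. Mouse 1 had all of these genes except Dlgap3, and mouse 2 had Nhs, Nhsl2 and Dlgap3. All 9 regions lay on chromosomes with under 500 called regions. There they were 5 of 16 start-crossing regions (background 51.6%) and 4 of 5 (background 77%), while none of the 36 and 53 on the other chromosomes reached 4-fold. At 0.25-fold or less stood 1 of 52 in mouse 1 (background 1.63%) and 0 of 58 in mouse 2 (background 0.794%).

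Nhs and Nhsl2 belong to the Nance-Horan family, whose members carry a WAVE homology domain and act on the actin cytoskeleton. The Nhs region, chrX:162158486-162160125 in mouse 1 and chrX:162158801-162160200 in mouse 2, had 45 HA against 0 IgG reads in each mouse. The Nhsl2 region, chrX:101849331-101849945 and chrX:101849201-101850200, had 45 HA against 0 IgG reads in mouse 1 and 51 HA against 0 IgG reads in mouse 2. With the empty IgG library set at 3 reads per region, the fold of each was 5.18 in mouse 1. In mouse 2 the folds were 15.8 (Nhs) and 17.96 (Nhsl2). These folds depend on the 3 reads set. The lower limits of the 95% counting intervals were 4.04 for each in mouse 1, and 12.4 (Nhs) and 14.1 (Nhsl2) in mouse 2. No IgG read fell in either region in either mouse, and both held coding sequence: 556 coding bases of Nhs and 280 of Nhsl2 in each list.

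Synm encodes synemin, an intermediate filament protein, and its region chr7:67758601-67760200 had 44 HA reads against 1 IgG read in mouse 1, a ratio of 15.2 with a 95% exact counting interval of 2.59 to 614. Arhgef17 encodes a guanine nucleotide exchange factor for small GTPases. Its region chr7:100928601-100932400 had 149 HA against 9 IgG reads in mouse 1, a fold of 5.72 (2.93 to 12.8). Neither gene had a start-crossing region in mouse 2 over IgG, and a region absent from a list was not called there, which is not the same as 0 reads. Dlgap3, a postsynaptic scaffold that links PSD-95 to Shank, was crossed in both mice. It had 14 HA against 4 IgG reads in mouse 1, a fold of 1.21 (0.380 to 5.05), and 31 HA against 7 IgG reads in mouse 2, a fold of 4.68 (2.02 to 12.6), and these intervals overlap.

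Regions with identical coordinates in both mice and 20 or more reads were tested with limma. Over IgG, 77 of 92 tested regions of all kinds (83.7%) were higher at a limma adjusted p below 0.05. None was lower (0%, also 0 at an unadjusted limma p below 0.05). These shares are the background for the start-crossing regions among the 92. All 92 had already been called in both mice from the same libraries that were tested, so the result is no separate evidence of capture. Of 4 start-crossing regions with identical coordinates, 2 could be tested. Zfr, a zinc finger RNA-binding protein gene, had 6 HA against 2 IgG reads in mouse 1 and 8 HA against 6 IgG reads in mouse 2 and did not pass (0.16, SE 0.33, limma adjusted p = 0.708). The median log2 difference of the 92 tested regions was 3.07, with control library sizes that followed from the list median ratio. The counts depended on this scale. On scales taken from the tested regions themselves, 11 (trimmed mean) or 13 (median) were higher and 18 were lower.

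Over IgG the 2 mice seldom shared a start-crossing region. A start-crossing region on the same gene that overlapped by at least 1 base was found for 63 of 363 regions of mouse 1 (17.4%) and 63 of 182 of mouse 2 (34.6%), for 68 genes in all. Only 4 had identical coordinates. On chromosomes 12 and 15 the shared part was 57 of 119 (47.9%) and 57 of 172 (33.1%), and on the rest it was 6 of 244 and 6 of 10. Counting overlap with a region of any kind in the other mouse, the share was 22.9% and 49.5% for start-crossing regions. For all other regions it was 21.4% and 49.5%, but these were matched only to regions that were not start-crossing. The 2 shares are therefore not the same measure.

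Of the shared genes, 13 had 20 or more reads in both mice, and 3 of these, among them Nhsl2 and Nhs, reached 4-fold in both (background over all overlapping pairs, 35.1%). Another 7 were below the list median in both mice. The remaining folds were small and the mice often differed. Kcnf1, a modulatory potassium channel subunit gene, had 18 HA against 5 IgG reads in mouse 1 and 19 HA against 18 IgG reads in mouse 2, folds of 1.24 and 1.12. Sox11, a transcription factor gene, held 27 HA reads in each mouse beside 11 and 30 IgG reads, folds of 0.848 and 0.951. Irf2bpl, a transcriptional coregulator gene, had 22 HA against 18 IgG reads in mouse 1 and 27 HA against 19 IgG reads in mouse 2. Its folds, 0.422 and 1.501, lie on opposite sides of the median, as do those of Bcl11b, a zinc finger factor of neurons, at 0.691 and 1.41.

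Nr4a1, an immediate early nuclear receptor gene, had the widest region of the 13, 20520 and 20235 bp. It had 51 HA against 26 IgG reads in mouse 1 and 41 HA against 80 IgG reads in mouse 2, with folds of 0.678 (0.415 to 1.13) and 0.541 (0.362 to 0.798). Both values sit below the median, and in mouse 2 the interval does too. Pnn, which encodes the splicing-associated protein pinin, had 21 HA against 21 IgG reads in mouse 1 and 17 against 24 in mouse 2, folds of 0.345 and 0.748. Other shared genes were Yy1, a zinc finger factor, with folds of 0.505 and 0.822, the antisense gene Nckap5los inside Nckap5l with 0.576 and 0.994, and Gm20535 inside Asap2 with 0.374 and 0.960. Raw IgG reads exceeded HA reads at 1 of these 13 genes in mouse 1 and at 7 in mouse 2.

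**Figure D3:**
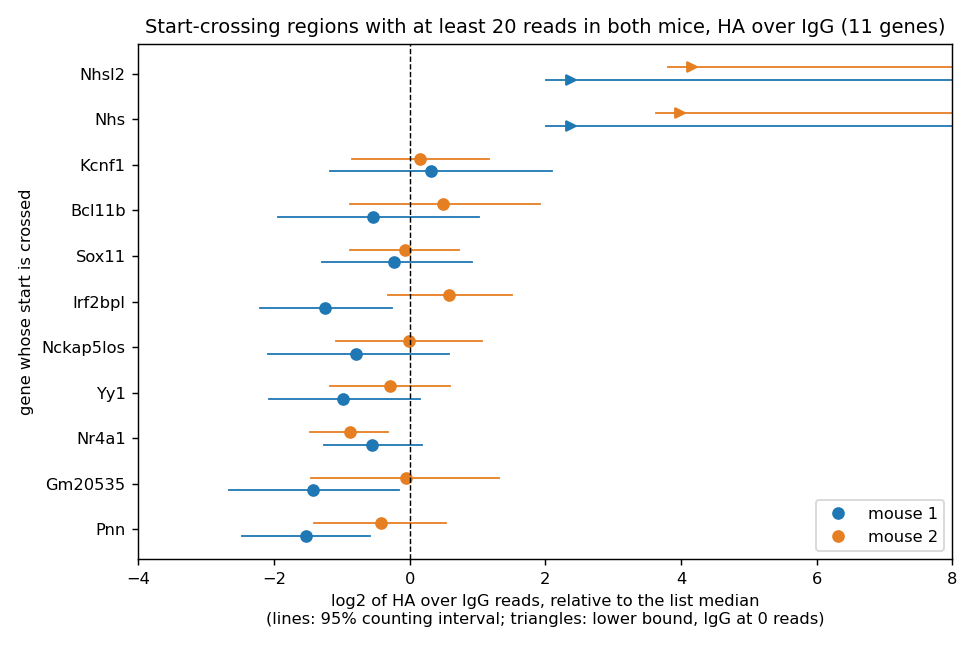
Log2 fold of HA over IgG, relative to the list median (dashed), of 11 of the 13 genes whose start-crossing regions had 20 or more reads in both mice, blue for mouse 1 and orange for mouse 2. Lines are 95% exact counting intervals. Triangles, labelled as lower bounds on the axis, are folds with 3 reads in place of 0 IgG reads, and the lower bound is the left end of the line. Nhsl2 and Nhs stand apart in both mice and the other 9 genes lie near or below the median.

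Against wild-type HA, few start regions stood high and several stood low. At 4-fold or more stood 1 of 109 regions in mouse 1 (background 1.64%) and 2 of 105 in mouse 2 (background 4.31%). At 0.25-fold or less stood 4 of 109 (background 4.32%) and 5 of 105 (background 4.75%). These counts are close to the background or below it. The hippocampus of each mouse was lysed whole and no input library was analysed here, so fewer cells of a type, less RNA per cell and less capture cannot be told apart.

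Nhsl2 was the high region of mouse 1, with 45 HA reads beside 1 wild-type read, a ratio of 31.9 with a counting interval of 5.44 to 1286. In mouse 2 the high regions were Gm25461 and Pim3. Gm25461 is a small nucleolar RNA gene inside Snhg14, the host of imprinted small nucleolar RNAs, and its 200 bp region chr7:59516601-59516800 held 53 HA reads and 3 wild-type reads, a fold of 10.1 (3.27 to 50.5). The same region held 66 IgG reads in mouse 2, more than the HA reads, and was not called in mouse 1. Pim3, a serine/threonine kinase gene whose promoter is printed above, had 23 HA against 2 wild-type reads, a ratio of 6.57 (1.62 to 57.5), beside 14 IgG reads. Over IgG their folds were 0.848 and 1.74, so of the start-crossing regions with 20 or more reads in both lists of a mouse, only Nhsl2 in mouse 1 reached 4-fold over both controls.

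The low regions over wild type included those of Myh9, Actn1 and Arhgef17 in mouse 1 and of Myh9, Pex5 and Dst in mouse 2. Myh9 encodes the heavy chain of non-muscle myosin IIA, and its region chr15:77841766-77842335 was called with the same 570 bp in all 4 lists. It held 5 HA reads in mouse 1, 2 in mouse 2 and 19 in wild type, beside 0 and 1 IgG reads. Wild-type HA was thus the highest of the 5 libraries at this start, and the folds were 0.186 (0.0544 to 0.516) and 0.0602 (0.00679 to 0.249). Actn1, the gene of the actin cross-linker alpha-actinin 1, held 5 HA reads beside 35 wild-type reads in mouse 1, a fold of 0.101 (0.0309 to 0.259), and 1 IgG read. In mouse 2 it was called over IgG only, with 3 HA and 5 IgG reads.

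Arhgef17, high over IgG, was low over wild type: 149 HA beside 508 wild-type reads in mouse 1, a fold of 0.208 (0.172 to 0.2498), in a region of 3600 bp. Its HA reads thus lay above IgG and below wild-type HA. Gm20479, a gene annotated inside the beta-IV spectrin gene Sptbn4, had 278 HA against 909 wild-type reads in mouse 1, a fold of 0.217 (0.189 to 0.248). Only 0.698% of that 19200 bp region was annotated exon of Gm20479, so its reads may belong to either gene. In mouse 2 the low regions besides Myh9 were Pex5, the peroxisomal import receptor gene, with 6 HA and 19 wild-type reads, and Dst, the gene of the cytolinker dystonin, with 20 and 57. Tuba1a, an alpha-tubulin gene, held 10 and 26 and Ckb, brain creatine kinase, 7 and 16. Their folds were 0.180, 0.201, 0.220 and 0.25. Tuba1a and Ckb were also low over IgG in mouse 2, with 10 HA beside 38 IgG reads and 7 HA beside 27. The Dst region of 11070 bp crossed the opposite-strand start of Bend6 as well.

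Among genes crossed in both mice with 20 or more reads, 57 could be set side by side over wild type. Both folds use the same wild-type library, so their likeness is no separate evidence. The highest mean was that of Ptp4a1, a tyrosine phosphatase gene, with 28 HA against 8 wild-type reads in mouse 1 and 34 against 5 in mouse 2, folds of 2.48 and 3.89. Antisense genes followed: Gm16564 inside Kif26b held 53 and 10 reads in mouse 1 and 41 and 10 in mouse 2, folds of 3.75 and 2.34. Gm19461 inside Plekha6 had folds of 2.46 and 2.51, and Gm26801, which shares its region with the transcriptional repressor gene Zbtb18, had 3.36 and 1.47. Pnn, low over IgG, had folds of 2.48 and 1.62 over wild type, from 6 wild-type reads in each region. At the low end after Myh9 and Ckb stood the AU040320 and Ncdn pair, with 136 and 153 HA reads and 268 wild-type reads, folds of 0.359 and 0.326. Ncdn encodes neurochondrin, a neuronal protein of the dendrite. Atp6v0a4, a proton pump subunit gene, had folds of 0.614 and 0.419, Irf2bpl 0.519 and 0.514, and the immediate early gene Egr4 0.644 and 0.429.

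With limma over wild type, 10 of 94 tested regions of all kinds were higher (background 10.6%) and 27 were lower (background 28.7%). The fit had 1 wild-type library and 1 residual degree of freedom. Of 8 start-crossing regions tested, 0 were higher (0 at an unadjusted p below 0.05) and 3 were lower. Myh9 was lower (log2 -3.05 with SE 0.50, limma adjusted p = 0.00253), the AU040320 and Ncdn region was lower (-1.54 with SE 0.27, limma adjusted p = 0.00355) and so was Atp6v0a4 (-0.97 with SE 0.29, limma adjusted p = 0.0360), each in both mice. Kif1b (-0.81, SE 0.27, limma adjusted p = 0.0527), Zfr (-0.67), Whrn (-0.47), Xkr4 (0.14) and Dnajb5 (-0.02) did not pass. On the pooled-read scale the AU040320 and Ncdn region gave -0.72 (limma adjusted p = 0.0555) and Atp6v0a4 -0.14 (limma adjusted p = 0.694). Atp6v0a4 also lost its call with no read minimum (limma adjusted p = 0.115) and on the trimmed-mean (0.0622) and median scales (0.103), that is, in every alternative that gave a test. The AU040320 and Ncdn region lost its call on the pooled scale alone among these 4, and Myh9 kept its call in all 4. From single HA libraries the Myh9 difference was -2.42 in mouse 1 and -3.67 in mouse 2, with no test.

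The 2 controls could be compared directly where a mouse's IgG and wild-type lists held a region with the same coordinates, which was so for 289 start-crossing regions of mouse 1 and 159 of mouse 2. HA reads were equal between the lists in all of them. In mouse 1 these regions held 2344 HA, 972 IgG and 1585 wild-type reads, and HA was the highest of the 3 libraries in 221. In mouse 2 they held 1472 HA, 1845 IgG and 815 wild-type reads, and HA was the highest in 68. Among all other regions with the same coordinates in both lists, HA was the highest in 2472 of 2923 in mouse 1 and 747 of 1428 in mouse 2. At 20 or more reads in the 3 libraries together stood 63 start-crossing regions in mouse 1 and 60 in mouse 2. IgG reads were above HA reads in 3 and 40 of them, against 41 of 715 and 344 of 584 other regions. Wild-type reads were above HA reads in 19 and 6, against 148 of 715 and 85 of 584 other regions. These are raw reads, not scaled for library size, so the totals show the size of the libraries as well as what they captured. The regions also had to be called in both lists of the mouse. Every start-crossing region held at least 2 HA reads, while a control could hold 0. How often HA was the highest can therefore reflect the choice of regions too.

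**Figure D4:**
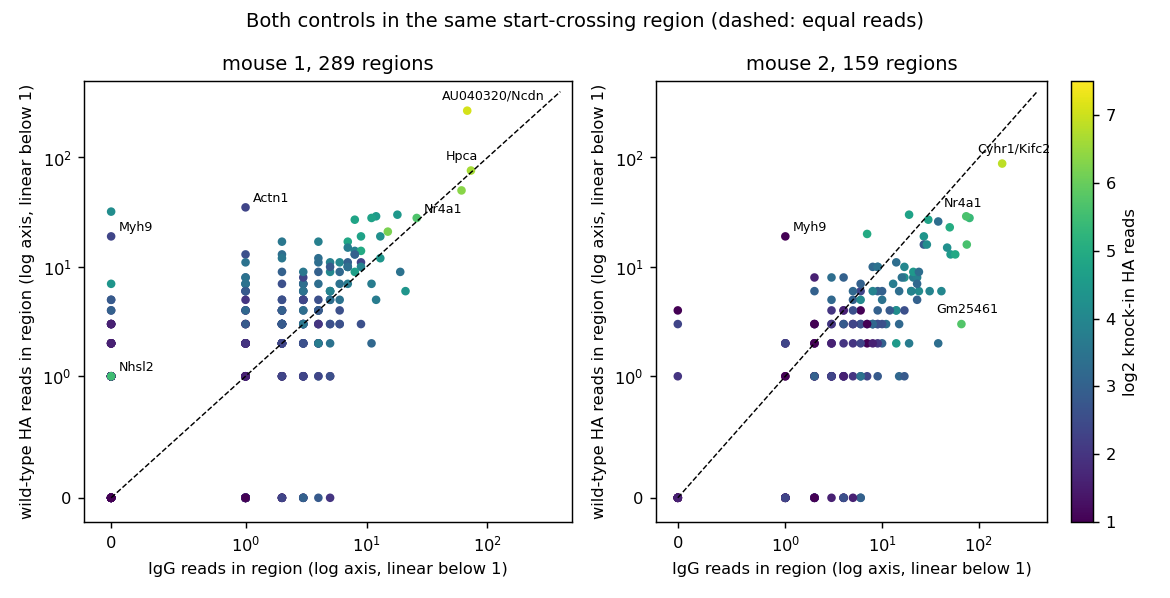
Wild-type HA reads (vertical) against IgG reads (horizontal) in start-crossing regions with identical coordinates in both lists of a mouse, 289 in mouse 1 and 159 in mouse 2, on log axes that are linear below 1, coloured by log2 knock-in HA reads. Myh9 lies high on wild-type reads at 0 or 1 IgG reads in both panels, and Gm25461 lies far to the right at 66 IgG and 3 wild-type reads.

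The fold at the start was often close to that of the rest of the gene. Other called regions on the crossed gene were present for 228 of 427, 132 of 211, 329 of 600 and 346 of 562 genes. Where both parts had 20 or more reads, the log2 folds had a Pearson correlation across genes of 0.85 (15 genes), 0.86 (23), 0.69 (38) and 0.86 (37), and a Spearman correlation of 0.58, 0.63, 0.41 and 0.50. The start had the lower fold for 9, 15, 17 and 26 of these genes. The median log2 difference, start less the rest, was -0.65, -0.30, 0.23 and -0.13. These are descriptions: both parts of a gene come from the same libraries, genes are not independent replicates, and over IgG Nhs, Nhsl2 and Synm are far above the other points on both axes.

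Nhs had 631 HA against 2 IgG reads elsewhere in mouse 1, and Nhsl2 6233 and 27, folds of 109 and 79.8. Their start folds of 5.18 each rest on the 3 reads set in place of 0 IgG reads. The lower limit of the 95% counting interval was 4.04 for each. Synm had 231 HA against 2 IgG reads elsewhere, a fold of 39.9 against 15.2. Dlgap3 had 87 HA against 40 IgG reads elsewhere in mouse 2, a fold of 2.30 beside 4.68 at the start.

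Over wild type, 5 genes with low starts and other called regions (Myh9, Arhgef17, Actn1, Pex5 and Dst) were low in both parts. Myh9 had 125 HA against 1288 wild-type reads elsewhere in mouse 1 and 82 and 1001 in mouse 2, folds of 0.0687 and 0.0468. Arhgef17 held 221 and 672 elsewhere, a fold of 0.233, and Actn1 21 and 116, a fold of 0.128. Pex5 had 0.168 and Dst 0.143 elsewhere in mouse 2. Among starts above the median, Lrfn5, a synaptic adhesion gene, had 2.57 at the start and 4.38 elsewhere in mouse 2, whereas Zbtb18 had 3.36 at the start and 1.10 elsewhere in mouse 1.

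Many of the regions with the most HA reads had folds near or below the median over IgG. In mouse 1 the regions with the most HA reads included, beside Arhgef17, AU040320 and Ncdn (136 HA, 68 IgG reads), the lysosomal sulfatase gene Ids (118 and 56), the neuronal calcium sensor gene Hpca (98 and 73) and the co-chaperone gene Dnajb5 (81 and 61). In mouse 2 they included the opposite-strand pair Cyhr1 and Kifc2 (115 and 174), Gm25461, Nhsl2, the zinc finger gene Zfp740 (50 and 74) and Gpr22 (49 and 75). Hpca, at a fold of 0.464, and Gpr22, at 0.690, lay below the list median.

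Over wild type in mouse 1 the most HA reads after Gm20479 were in Rsrp1 (199 HA, 133 wild-type reads), Arhgef17, AU040320 and Ncdn, the Kv3.1 potassium channel gene Kcnc1 (130 and 75) and Hpca (98 and 76). In mouse 2 they included AU040320 and Ncdn, Gm12940 inside the splicing factor gene Sfpq (118 and 43), Cyhr1 and Kifc2 (115 and 88), Dnajb5 (75 and 50) and Hcfc1 (63 and 72). Dnajb5 was crossed over the same 9000 bp in 3 lists, and its 81 and 75 HA reads stood beside 61 IgG reads and 50 wild-type reads. Rsrp1, at 1.06, and Hpca, at 0.913, sat at about the list median.

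Start crossings were counted for genes of CYFIP1-related pathways, without a share over all genes to set beside them. Among all regions of the 4 lists, 8.66%, 9.48%, 9.34% and 8.90% were start-crossing. That is a share of regions and not of genes, so it cannot show whether these counts are low or high. Of 24 WAVE complex and actin genes listed, 0, 0, 0 and 1 had a start-crossing region in the 4 lists, while 7, 3, 10 and 9 had any region. The 1 was Arpc5, an Arp2/3 subunit, with 44 HA against 23 wild-type reads in mouse 2, a fold of 1.09. Of 5 Nance-Horan family genes, 2, 2, 1 and 0 had one, and 4, 4, 3 and 3 had any region. Of 21 genes of the NMDA receptor complex and its scaffolds, only Dlgap3 had one, in every list, while 6, 6, 7 and 7 had any region. Over wild type Dlgap3 had 14 HA against 17 wild-type reads in mouse 1 and 31 against 20 in mouse 2, folds of 0.583 and 0.886.

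Of 26 FMRP target genes, 1, 0, 1 and 2 had a start-crossing region and 10, 9, 9 and 12 any region. The crossed ones were Adgrb2, an adhesion receptor (25 HA and 8 IgG reads, 25 and 9 wild-type reads in mouse 1), and Dst. Of 22 translation control genes, 0, 1, 2 and 1 had one, which were Ago2 and Tia1 with 2 to 4 HA reads, and 6, 4, 7 and 10 had any region. Of 20 small RNA host genes none was crossed at its start, and 4, 5, 8 and 8 had any region. None of the starts of App, Arc, Map1b, Cyfip1, Fmr1, Dlg4, Camk2a, Grin1, Grin2a and Grin2b was crossed by a region of this class in any list. Of 21 immediate early genes, which neuronal activity switches on, 4, 1, 5 and 3 had one, among them Nr4a1, Jun, Egr4 and Ier5, and 6, 2, 9 and 7 had any region. Jun held 29 HA reads beside 7 IgG and 17 wild-type reads in mouse 1, folds of 1.43 and 1.21. No list of genes can be called particular to this class from these counts.

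Marker genes of hippocampal cell types were counted in the same way, again without a share over all genes. Of 15 markers of pyramidal and granule neurons only Calb1 was crossed, in mouse 2 over wild type, with 3 HA and 0 wild-type reads, and 3, 0, 6 and 4 had any region. Of 11 oligodendrocyte markers 0, 1, 1 and 2 were crossed, and 1, 1, 2 and 2 had any region. Among them Sox10 had 19 HA against 21 IgG reads in mouse 2, a fold of 0.956, and Mag 25 HA against 18 wild-type reads in mouse 1, a fold of 0.984. No start of the interneuron, astrocyte, microglia, endothelial and blood or choroid plexus markers listed was crossed. The interneuron and the endothelial and blood markers had no region of any kind, 1 microglial marker had a region in mouse 2 over IgG, and 2 astrocyte and 2 choroid plexus markers had a region in every list. A marker without a called region is not shown to be absent, and the part of cell composition in the folds was not tested.

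Across the 4 lists, 990 genes had their start crossed: 427 in 1 list, 379 in 2, 121 in 3 and 63 in all 4. The 63 included Dlgap3, Myh9, Nr4a1, Yy1, Sox11, Bcl11b and Pnn, described above. Most held few reads. The dynein heavy chain gene Dync1h1 held 6 and 11 HA reads in mice 1 and 2, beside 1 and 16 IgG reads and 8 wild-type reads in each region. Trio, a guanine nucleotide exchange factor gene, held 11 and 8 HA reads beside 1 and 4 IgG reads and 8 wild-type reads in each region.

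The authors' own statistics for these regions differed between lists. Per the authors' deposited lists, an adjusted p under 0.05 was given to 58.1%, 80.2%, 78.6% and 75.3% of start-crossing regions. Among all other regions the share was higher in every list, at 65.2%, 88.1%, 82.7% and 79.1%. An empirical false discovery rate under 10% was given to 3.58%, 71.4%, 48.4% and 49.9% of start-crossing regions. That was close to the 4.31%, 71.8%, 48.1% and 47.8% of all other regions of the same lists.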

How the data were processed

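Libraries of anti-HA or IgG precipitates were sequenced for 50 cycles, single-end, per the labels' protocols. TopHat and TopHat2 with GRCm38 and mm10 are named in the submitters' processing notes, and rtracklayer 1.28.9 wrote the lists per the file headers. The sources used here do not give the region caller. The authors deposited, for each region, other values per library: whole numbers of HA and control reads, not scaled for library size, with their own adjusted p and empirical false discovery rate.

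Unique regions were taken by coordinates (Python 3.11.15, pandas 2.3.3, scipy 1.17.1) and the gene annotation was GENCODE M21. Counting intervals are exact Clopper-Pearson intervals at 95% and cover counting error only. A control of 0 was set to 3 reads per region. Members with 20 or more reads carry folds. The planned count model was not run, because the reads sit inside an attribute field; limma 3.58.1 was fitted on log2 reads with 0.5 added, over all regions with identical coordinates in both mice, with Benjamini-Hochberg adjustment, and was tested on simulated data. HA library sizes were the summed reads of the tested regions, control sizes followed from the list median ratio, and over wild type 4 regions with unequal wild-type reads between the lists were left out. Nothing in the labels says whether the samples came from separate animals beyond their numbers, so p-values measure only the spread between these samples. The members, gene lists, fold limits and read minimum were chosen with earlier results of these data known. Genes named are those with the most HA reads per list (6), the highest and lowest shared genes per control (10 each), the tested regions, 10 genes of interest to the study and up to 4 per gene list. Those named for a fold of 4 or more or 0.25 or less, and Dync1h1, Trio and Lrfn5, were chosen after their values were seen. Regions of some genes are counted in the totals and not reported here by name.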

Additional observations from a re-analysis of the deposited data

How the results depend on the processing

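Counts of start-crossing regions stayed within 1.5 times under wider or stricter definitions, as did the overlap of the mice at 50% of both regions; with identical coordinates it fell from 63 to 4. The median log2 fold with no read minimum was -0.53, 0.079, 0.087 and 0 in list order, with at least 50 reads -0.55, -0.54, -0.22 and -0.23, and on the pooled-read scale -0.82, -1.53, 0.72 and 0.82. Without replicate 1 or 2 the mean of both mice ran from -0.45 to -0.40 over IgG and from -0.11 to -0.01 over wild type. Counts at 4-fold or more, of 5, 4, 1 and 2, became 2, 2, 0 and 1 with at least 50 reads, and 3, 7 and 7 on the pooled scale for mouse 1 over IgG and both mice over wild type. On chromosomes with at least 500 regions, an alternative chosen after seeing the data, they were 0, 0, 0 and 1. The 3 genes high in both mice became 1 on the pooled scale and 1 with at least 50 reads.

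In limma over IgG, 77 higher and 0 lower became 11 and 18 on the trimmed-mean scale and 13 and 18 on the median scale, which was added after seeing the data; with no read minimum 1 was lower. Leaving out libraries gave 69 to 85 higher and 0 to 2 lower. Over wild type, 10 higher became 35 with no read minimum, 39 on the pooled scale and 16 on the trimmed-mean scale, and 27 lower became 16 on the pooled scale. The Zfr difference over IgG of 0.16 turned to -0.60 (pooled), -2.91 (trimmed mean), -2.88 (median) and lay between -0.039 and 0.35 when a library was left out, the lowest without the HA library of mouse 2. Over wild type on the pooled scale Zfr turned to 0.16, Whrn to 0.36, Kif1b to 0.015 and Dnajb5 to 0.81, and Dnajb5 was also 0.18 (trimmed mean) and 0.19 (median) and 0.09 without the HA library of mouse 2. The cause of these changes was not tested. Same-numbered HA and IgG libraries did not deviate together (correlation -0.04 across 92 regions), and the replicate block gave 75 higher and 0 lower. The planned count models were not run, and over wild type leaving out an HA library left no test. Depth limits most members, since only 52 of 363, 58 of 182, 109 of 500 and 105 of 477 held 20 or more reads.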
